A study of Mus musculus with 9 samples.

Results

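This account compares H3K27me3 in a rescue line and a deleted line of mouse MLL-ENL leukemia cells, gene by gene, with 1 chromatin immunoprecipitation library on each side. The study holds 9 libraries, made with antibodies to H3K27me3 and H3K4me3 and with an antibody to the Flag tag in each of 3 genotypes, and 2 of the 9 form the comparison. All genotypes are MLL-ENL leukemia, a myeloid leukemia in which Kmt2a is fused to Mllt1. The floxed line (fl) carries a loxP-flanked allele that the labels do not name, the deleted line is labelled ΔERT2, and the rescue line is the deleted genotype with added Flag-tagged Hhex (ΔERT2 + Hhex-F). The deleted and rescue lines therefore share the deletion and differ in the labels by Hhex-F alone. The labels do not say whether a line is a single clone or whether animals were pooled. Judging by the series title, the question is whether Hhex enables repression of Cdkn2a through Polycomb repressive complex 2 (PRC2).

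H3K27me3 is the trimethyl mark on lysine 27 of histone H3 that PRC2 places through its Ezh1 or Ezh2 subunit. Polycomb-silenced genes, such as Hox genes and other developmental regulators in blood cells, carry it densely, while expressed genes carry little of it and have H3K4me3 at their promoters. Hhex is a homeodomain transcription factor of early blood, endothelium and liver. Cdkn2a encodes the cell cycle brakes p16 and p19ARF, and its silencing by Polycomb is a known feature of proliferating progenitor and leukemia cells.

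H3K27me3 was counted over whole gene spans. The named genes held 2444487 counts in the floxed library, 2535576 in the deleted library and 4203349 in the rescue library, so the rescue library was 1.66 times as deep as the deleted one. Of 26611 named genes, 10951 (41.1%) averaged 20 counts or more across the deleted and rescue libraries and are called measured here. They held 97.6% of the deleted and 97.5% of the rescue counts, with a median of 94 and 147 counts a gene. At the edge of that minimum, 1700016C15Rik (10 deleted and 30 rescue counts) and 2010109I03Rik (12 and 28) were just inside, and Znrf2 (18 and 21) and n-R5s136 (13 and 26) just outside. In the H3K4me3 libraries, the 8 defining myeloid genes of the line (Mpo, Elane, Prtn3, Ctsg, Csf1r, Itgam, Spi1 and Cebpa) had between 811 and 1014 CPM (counts scaled to library size) in sum, with none at 0. Csf1r was the lowest of them, with 10, 4 and 1 counts in floxed, deleted and rescue. The 15 B-cell markers summed to 104 to 157 CPM and the 19 T-cell and NK-cell markers to 72.8 to 116 CPM, with 3 genes of each list at 0 in both the deleted and the rescue library. The 17 erythroid and megakaryocyte markers summed to 246 to 330 CPM, the 20 stromal and endothelial markers to 375 to 549 and the 14 mast cell, basophil and eosinophil markers to 440 to 466. In these lists 4, 6 and 6 genes were at 0 in both libraries, and the part of such cells in the results was not tested. Kit, also a progenitor gene, held 223 of 289 floxed, 162 of 196 deleted and 143 of 174 rescue counts of the mast cell, basophil and eosinophil list.

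CPM were computed over the named genes. A gene was called higher or lower in rescue under a size rule: its CPM had to differ from the deleted library by 1.5-fold or more, and 1 had to lie outside the 95% interval of the ratio (exact conditional binomial). There is no replicate check: the calls describe these libraries, not the conditions, and every interval covers counting error only. Counts are given below in the order floxed, deleted, rescue. The floxed counts stand beside the others as a level, and each contrast with the floxed library shares a library with the one reported.

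More genes were lower than higher in H3K27me3 in rescue against deleted, while the largest fold changes were among the higher ones. In all, 787 genes (7.19%) were higher in rescue, 1232 (11.3%) were lower and 8932 were not called. The median log2 ratio of all measured genes was -0.06, with quartiles of -0.35 and 0.22. At 2-fold or more there were 360 higher and 510 lower genes, at 5-fold or more 69 and 25, and at 10-fold or more 39 and 3. The excess of higher genes at 5-fold or more rests largely on the count minimum. Of the 69 genes, 39 had fewer deleted counts than the minimum and passed through the deeper rescue library, where they are high. Among genes whose deleted counts alone met the minimum, 30 were higher and 25 lower by 5-fold or more. The 10-fold genes were not counted in this way. The split depended on the count minimum and the scaling. At a mean of at least 100 counts the order turned, with 456 higher and 409 lower genes. When the libraries were scaled to the sparsest genes, log2 ratios moved by -0.21, the calls became 428 higher and 2250 lower, and the higher share of calls went from 39.0% to 16.0%. List medians are therefore also given relative to the median of all measured genes.

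**Figure D1:**
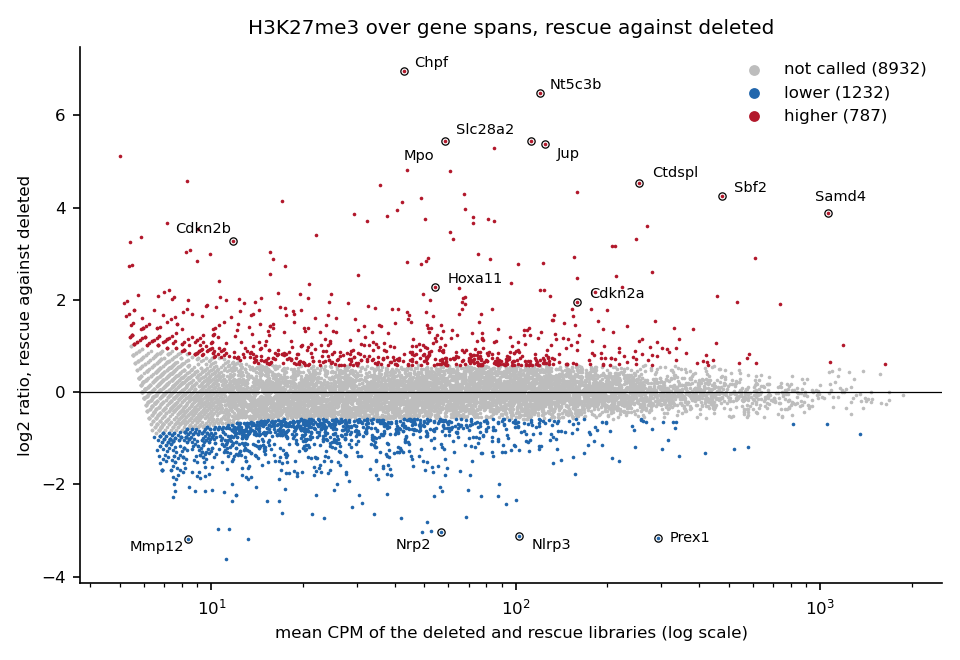
Each point is 1 of 10951 measured genes, with the mean CPM of the deleted and rescue libraries on the horizontal log axis and the log2 ratio of rescue to deleted on the vertical axis. Red points are the 787 genes called higher and blue points the 1232 called lower. The higher genes reach log2 ratios above 6 (Chpf 6.95, Nt5c3b 6.48), while the lowest labelled genes lie near -3 (Mmp12 -3.19, Prex1 -3.16, Nlrp3 -3.13).

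Cdkn2a and Cdkn2b, the inhibitor genes next to each other on chromosome 4, were among the higher genes. Cdkn2a (chr4:89274473-89294619, mm10) had 575, 164 and 1060 counts. Its ratio was 3.90 (3.31 to 4.62), or 1.96 on the log2 scale. Cdkn2b (chr4:89306289-89311032), which encodes p15, had 62, 5 and 91 counts, with a ratio of 10.98 (4.54 to 34.6). Its 5 deleted counts are below the count minimum, which it passed through the rescue library, where it is high. The deleted library was low and the rescue library lay near the floxed level per kb at both genes: 11.7, 3.21 and 12.5 CPM per kb at Cdkn2a, and 5.35, 0.416 and 4.56 at Cdkn2b. The measured genes on either side were not called higher. Gm12603 had 129, 159 and 262 counts and Dmrta1 167, 137 and 250, neither called, and the more distant Elavl2, an RNA-binding protein gene of neurons, had 108, 117 and 88 and was lower at 0.454 (0.340 to 0.603). Of 8 CDK inhibitor genes 4 were measured, 3 of them higher, where 7.19% of all measured genes were higher. The third was the imprinted Cdkn1c (128, 82 and 248 counts), and Cdkn2c, which encodes p18, was lower (95, 86 and 58 counts, ratio 0.407, 0.286 to 0.574).

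Hhex (chr19:37434841-37440731) had 332, 385 and 487 H3K27me3 counts. Its ratio was 0.763 (0.666 to 0.874), which did not meet the size rule and met it as lower when the libraries were scaled to the sparsest genes. Its H3K4me3 window had 60, 68 and 130 counts, higher at 2.04 (1.51 to 2.77). The labels do not say which bases are deleted, so these counts do not check the deletion.

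Promoter sequences are shown for Cdkn2a and Cdkn2b and for 4 genes among those with the largest gains or losses, since the density of CG dinucleotides, in capitals, is the sequence feature best known to go with Polycomb binding in mammals. Each is the 250 bases before the transcription start, 5′ to 3′ on the gene's strand, from the RefSeq promoter table of GRCm38.p6 (the same assembly as mm10); Cdkn2a and Nlrp3 have 2 starts listed there, and the first listed is shown.
Cdkn2a, chr4:89294620-89294869, minus strand: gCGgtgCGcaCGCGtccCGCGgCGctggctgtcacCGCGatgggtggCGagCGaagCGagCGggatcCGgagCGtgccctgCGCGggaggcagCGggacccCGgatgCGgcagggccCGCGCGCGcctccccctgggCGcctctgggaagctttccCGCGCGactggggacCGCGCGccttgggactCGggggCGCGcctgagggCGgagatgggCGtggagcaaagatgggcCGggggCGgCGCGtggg
Cdkn2b, chr4:89311033-89311282, minus strand: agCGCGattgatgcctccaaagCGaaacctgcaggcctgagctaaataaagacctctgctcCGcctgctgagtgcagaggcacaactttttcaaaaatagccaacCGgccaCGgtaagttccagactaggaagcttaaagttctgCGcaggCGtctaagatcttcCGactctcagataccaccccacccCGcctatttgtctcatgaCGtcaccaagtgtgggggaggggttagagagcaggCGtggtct
Slc28a2, chr2:122426185-122426434, plus strand: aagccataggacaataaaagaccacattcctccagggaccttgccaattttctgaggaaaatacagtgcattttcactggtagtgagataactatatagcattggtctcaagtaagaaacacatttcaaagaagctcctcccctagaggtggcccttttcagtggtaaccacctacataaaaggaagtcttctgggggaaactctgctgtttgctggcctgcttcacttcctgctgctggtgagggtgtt
Mpo, chr11:87793534-87793783, plus strand: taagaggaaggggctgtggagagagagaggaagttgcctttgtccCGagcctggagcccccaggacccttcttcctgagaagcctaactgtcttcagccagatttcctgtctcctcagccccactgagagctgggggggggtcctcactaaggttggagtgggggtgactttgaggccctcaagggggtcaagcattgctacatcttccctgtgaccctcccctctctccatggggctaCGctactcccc
Prex1, chr2:166713833-166714082, minus strand: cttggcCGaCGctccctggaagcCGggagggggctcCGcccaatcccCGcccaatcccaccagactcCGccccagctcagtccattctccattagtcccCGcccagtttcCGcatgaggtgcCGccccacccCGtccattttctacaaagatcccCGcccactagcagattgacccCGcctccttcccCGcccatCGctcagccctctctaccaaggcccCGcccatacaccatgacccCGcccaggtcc
Nlrp3, chr11:59542436-59542685, plus strand: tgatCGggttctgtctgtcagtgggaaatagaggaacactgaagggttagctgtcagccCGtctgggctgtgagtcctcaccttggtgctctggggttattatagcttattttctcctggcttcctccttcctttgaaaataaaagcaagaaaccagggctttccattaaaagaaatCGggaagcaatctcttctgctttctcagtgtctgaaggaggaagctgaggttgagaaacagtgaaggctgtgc
The Cdkn2a window holds 40 CG, Prex1 16, Cdkn2b 12, Nlrp3 3, Mpo 2 and Slc28a2 0. Over the first listed promoters of 27025 genes, 91.7% hold at least 1 CG in this window and the median is 6 (quartiles 2 and 16). Genes with CG-dense and with CG-poor windows thus stand on both sides of the comparison in this small set. A count over all called genes is not given, because only 74.8% of measured genes have a promoter in the table.

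The genes with the largest gains fell into those that carried H3K27me3 in the floxed library, lacked it in the deleted library and had it in rescue, and those nearly bare in both. Sbf2, a myotubularin-family regulator of phosphoinositides and Rab signalling, belonged to the first kind, at 1752, 120 and 3794 counts (19.1-fold, 15.9 to 23.1). Naaa, an acid amidase of lipid mediators, had 141, 7 and 358 counts (30.9, 14.8 to 77.3). Chpf, a chondroitin polymerising factor, had 189, 1 and 359 counts, and its ratio of 217 has a wide interval (38.6 to 8577) because it rests on 1 deleted count. At these 3 genes the rescue density was at or above the floxed one: 17.4 and 15.8 CPM per kb at Chpf, 4.15 and 2.81 at Naaa, and 2.94 and 2.34 at Sbf2.

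The second kind had few counts in the floxed library too. Mpo, which encodes the myeloperoxidase of neutrophil granules and is a defining gene of the myeloid lineage, had 5, 6 and 483 H3K27me3 counts, a ratio of 48.6 (22.2 to 133). Nt5c3b, a nucleotidase gene, had 7, 6 and 996 counts, a ratio of 100.1 (45.8 to 274). Vamp4, a vesicle fusion protein of the trans-Golgi, had 3, 10 and 493 counts, a ratio of 29.7 (16.0 to 62.4). In all 3 the rescue library alone was high, at 10.8, 12.6 and 4.15 CPM per kb. The phosphatase gene Ctdspl (43, 53 and 2049 counts), the tyrosine kinase gene Tnk2 (16, 16 and 543), the RNase gene Zc3h12c (9, 7 and 289) and Klhl10 of testis (13, 12 and 391) had the same course.

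Several top genes lay between these kinds, with some floxed signal, less in deleted and far more in rescue. Samd4, the translational repressor Smaug, had 943, 340 and 8334 counts, or a ratio of 14.8 (13.3 to 16.5), the largest rescue count of the 15 higher genes named. Slc28a2, a concentrative nucleoside transporter, had 35, 12 and 923 counts (46.4, 26.4 to 90.1). Jup, which encodes the junction protein plakoglobin, had 47, 14 and 1022 counts (44.0, 26.1 to 80.8). The LIM-domain scaffold gene Limd1 (52, 10 and 698 counts) and the sperm tektin gene Tekt3 (105, 37 and 1271) complete the 15. Limd1, whose gain was 42.1-fold (22.8 to 88.2), stood alone: its neighbours Lars2 (106, 103 and 148 counts) and Slc6a20b (130, 137 and 224) were not called.

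The largest losses were led by Prex1, a Rac exchange factor of neutrophils, with 535, 1334 and 246 counts, or a ratio of 0.111 (0.0967 to 0.128). Nlrp3, the inflammasome sensor, had 62, 466 and 87 counts, a ratio of 0.113 (0.0885 to 0.142). At both genes the deleted library stood above the other libraries. Prex1 went from 3.57 CPM per kb in deleted to 0.397 in rescue, against 1.48 in floxed. Il6ra, the interleukin 6 receptor (115, 227 and 52 counts), the Btk-binding Sh3bp5 (139, 303 and 76), the actin regulator Baiap2 (92, 185 and 45) and the phospholipase gene Plcg1 (37, 104 and 25) had the deleted library highest and the rescue library lowest.

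At Nrp2, Ica1 and Mical3 the floxed and deleted libraries were of closer level and the rescue library was low. Nrp2, a neuropilin that binds semaphorins and VEGF-C, had 225, 258 and 51 counts, or a ratio of 0.119 (0.0865 to 0.162). Ica1, an autoantigen of pancreatic islets, had 203, 239 and 48 counts (0.121, 0.0869 to 0.166), and the actin-oxidising enzyme gene Mical3 170, 222 and 44 (0.120, 0.0845 to 0.166). Per kb, Ica1 fell to 0.0772 CPM in rescue, from 0.637 in deleted. The loss at Nrp2 did not extend to the adjacent Pard3b (1411, 1823 and 2994 counts, not called). Mmp12, macrophage elastase, rests on few counts (27, 39 and 6), as do Msantd3 (35, 61 and 10), Endod1 (21, 52 and 10) and the zinc finger gene Zkscan17 (12, 48 and 9). The kinase adaptor gene Cables1 had 85, 150 and 39 counts. At Zkscan17, Endod1 and Cables1 the deleted library was the highest, at 3.86, 2.39 and 1.70 times floxed.

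Gains and losses differed by how densely a gene was marked. Density was taken from the floxed library, which is outside the contrast, as CPM per kb, and the measured genes were cut into 10 classes of equal size, from class 1 (sparsest) to class 10 (densest). In class 10 (8.85 CPM per kb or more) 165 of 1095 genes were higher (15.1%) and 32 lower (2.92%), the median log2 ratio was 0.31, and 935 genes lay above 0. In class 3, 94 were higher (8.58%) and 236 lower (21.6%), with a median of -0.23. Class 1 had a median of 0.04, with 92 higher and 54 lower genes. Scaled to the sparsest genes, the medians of classes 10, 3 and 1 were 0.10, -0.44 and -0.16, so the sign of class 1 flips and that of class 10 does not.

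Class 10 held 14.86% of all floxed counts (95% Wilson interval 14.81% to 14.90%), 11.34% of the deleted counts (11.31% to 11.38%) and 13.50% of the rescue counts (13.47% to 13.54%). The rescue share thus lay between those of the other libraries. The classes were set on the floxed library, so its own share is the highest partly by construction.

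**Figure D2:**
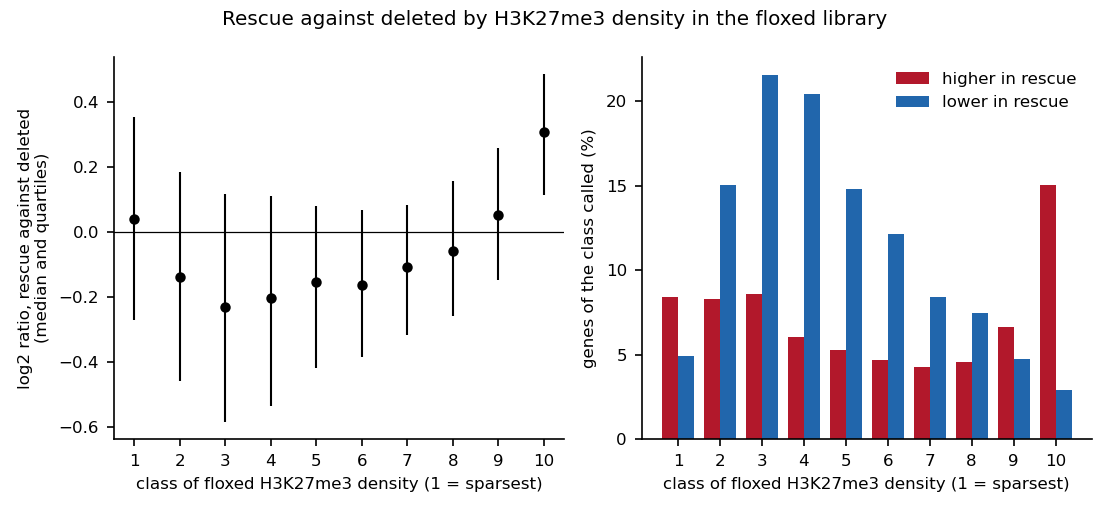
The left panel shows the median and quartiles of the log2 ratio of rescue to deleted in each class of floxed H3K27me3 density (CPM per kb), and the right panel the percent of genes called in each class. The median is lowest in class 3 (-0.23) and highest in class 10 (0.31), and the share of lower genes goes from 21.6% in class 3 to 2.92% in class 10.

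The calls were also counted by fold and density. Of the 427 genes higher by 1.5 to 2-fold, 138 (32.3%) were in class 10 and 99 (23.2%) in classes 1 to 3. Of the 69 genes higher by 5-fold or more, 4 (5.80%) were in class 10 and 44 (63.8%) in classes 1 to 3. Genes not called had 10.1% and 28.6% there. The count minimum takes part in this: 39 of the 69 had fewer than 20 deleted counts and passed through the deeper rescue library, where they are high. Of the other 30, 3 were in class 10 and 15 in classes 1 to 3, against 10.9% and 24.5% of the genes not called that had 20 or more deleted counts. The 5-fold genes had a median of 0.426 CPM per kb in floxed, 0.221 in deleted and 3.51 in rescue, above the median of 1.68 in rescue among genes not called. By gene length, the 2191 shortest genes (0.064 to 8.86 kb), which were also the densest, had a median of 0.11 with 263 higher and 226 lower genes. The other 4 length classes had medians from -0.10 to -0.07.

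The developmental transcription factors, the classic Polycomb targets, had list medians above that of all genes. Of 140 non-Hox homeobox and Pax genes 133 were measured, with 28 higher and 7 lower and a median log2 ratio of 0.35, which is 0.41 above the median of all genes. Of 66 bHLH, Gata, Zic and Gli genes 53 were measured, with 12 higher and 2 lower and a median of 0.38 (0.44 above all genes). Of 79 forkhead, Sox and T-box genes 66 were measured, with 7 higher and 6 lower and a median of 0.21 (0.27 above). The medians of these 3 lists kept their sign under every scaling, though that of the forkhead, Sox and T-box genes went to 0.00. The median member of each list was in density class 10, whose own median was 0.31. In that class 15.1% of genes were higher and 2.92% lower, against 7.19% and 11.3% of all measured genes. In the order given, the 3 lists had 21.05%, 22.64% and 10.61% higher, and 5.26%, 3.77% and 9.09% lower.

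Single members spread widely around these medians. Hlx, a homeobox gene of myeloid and gut development, had 1, 3 and 71 counts, and its ratio of 14.3 (4.69 to 70.9) rests on 3 deleted counts. Gbx2, which positions the midbrain boundary, had 50, 46 and 268 counts (3.51, 2.56 to 4.92). In the other direction Six5 had 161, 149 and 71 counts (0.287, 0.214 to 0.384) and Irx1 239, 209 and 104 (0.300, 0.235 to 0.382). In all 4 the floxed and deleted libraries were near each other and the rescue library stood apart. Ascl2, an imprinted bHLH factor of trophoblast and gut stem cells, had 67, 37 and 154 counts (2.51, 1.74 to 3.70), Gata2 191, 149 and 433 (1.75, 1.45 to 2.13), and Olig3 160, 95 and 268. Atoh1, a factor of hair cells and secretory gut cells, was lower (69 deleted and 54 rescue counts). Sox11 (60, 66 and 33 counts, ratio 0.302), the thymic factor Foxn1 (45, 45 and 28) and Foxn3 (262, 366 and 254) were lower, and Foxd4 was higher (93, 49 and 187).

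The Hox clusters had medians above 0 under every scaling. In HoxB, HoxC and HoxD 11.1%, 22.2% and 37.5% of the measured genes were higher, against 7.19% of all measured genes. The median member of each cluster was in density class 10, where 15.1% were higher. In HoxC all 9 genes were measured, 2 were higher, none lower, and the median was 0.50. In HoxD 8 of 9 were measured with 3 higher and a median of 0.52, and in HoxB 9 of 10 with 1 higher, 1 lower and a median of 0.35. Hoxc4 had 176, 93 and 282 counts (1.83, 1.44 to 2.34), Hoxd10 224, 121 and 369 (1.84, 1.49 to 2.28) and Hoxb13 202, 120 and 329 (1.65, 1.34 to 2.06). In HoxA 4 of 11 were measured, with 3 higher and 1 lower. The posterior Hoxa10 (239, 148 and 560 counts), Hoxa11 (166, 47 and 380) and Hoxa13 (163, 96 and 275) were higher, at 2.28, 4.88 and 1.73. The anterior Hoxb3 was lower, with 229, 231 and 110 counts (0.287, 0.227 to 0.362). Hoxa11 overlaps its antisense gene Hoxa11os, and how reads in the overlap were counted was not tested.

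**Figure D3:**
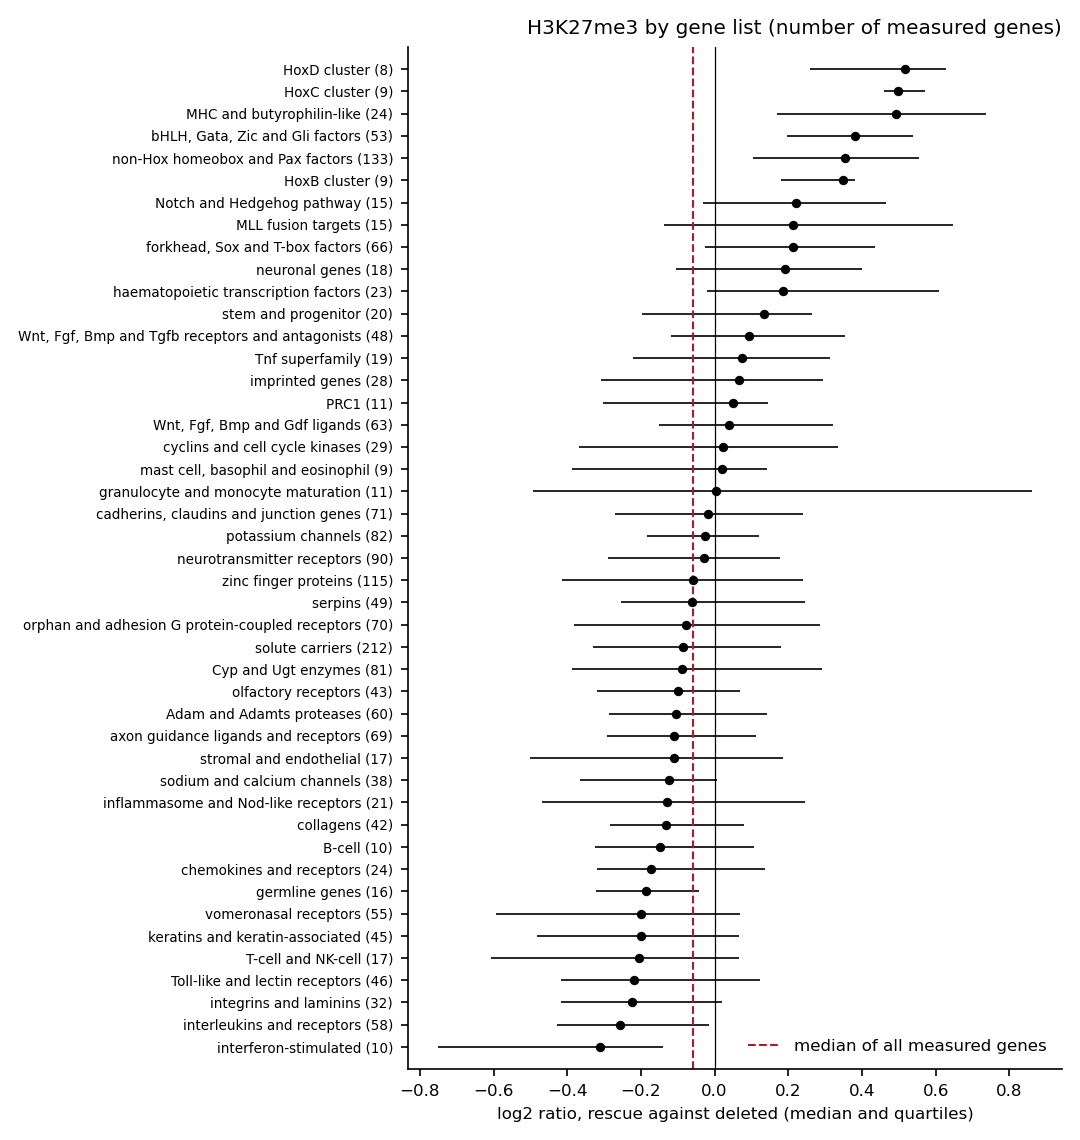
Points are the median and lines the quartiles of the log2 ratio of rescue to deleted over the measured genes of each list, with the number of genes in brackets. The dashed line is the median of all measured genes (-0.06). Among the lists of at least 8 genes shown, the HoxD genes (0.52), the HoxC genes (0.50) and the MHC and butyrophilin-like genes (0.49) lie highest and the interferon-stimulated genes (-0.31) lowest.

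Haematopoietic and leukemia lists were mixed, where 7.19% of all measured genes were higher and 11.3% lower. The median member of the haematopoietic transcription factors was in density class 9, whose own median log2 ratio was 0.05. Of 36 haematopoietic transcription factors 23 were measured, with 7 higher and 2 lower and a median of 0.19 (0.25 above all genes), which is -0.02 when scaled to the sparsest genes. Among them Ikzf1 (23, 9 and 33 counts), Runx1, the core-binding factor of definitive blood (72, 65 and 203), and Maf (170, 101 and 313) were higher, at 2.21 (1.04 to 5.26), 1.88 (1.42 to 2.53) and 1.87 (1.49 to 2.36). Of 25 MLL fusion targets 15 were measured, with 3 higher (Hoxa10, Jmjd1c and Sox4) and 1 lower, the survival gene Bcl2 (117, 191 and 136 counts, ratio 0.429, 0.342 to 0.538). Of 24 stem and progenitor genes 20 were measured. Mycn (391, 222 and 697 counts) and Gata2 were higher, and the receptor gene Kit was lower (255, 260 and 187 counts, ratio 0.434, 0.358 to 0.526).

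Of 33 granulocyte and monocyte maturation genes 11 were measured, 4 of them higher and 2 lower, with a median of 0.00 that is 0.06 above that of all genes and is -0.20 when scaled to the sparsest genes. The higher genes were Mpo, the coagulation factor gene F13a1 (65, 77 and 351 counts), the gelatinase gene Mmp9 (217, 124 and 448) and Adgre1, which encodes F4/80 (212, 183 and 462). The lower genes were the growth factor receptor gene Csf1r (38, 42 and 32) and the collagenase gene Mmp8 (101, 94 and 76). The other members were below the count minimum and are not read further: among the granule genes Ctsg had 0, 0 and 10 counts and Prtn3 1, 1 and 12, while Lcn2 had 2, 5 and 4, Ngp 0, 3 and 3, and Lyz2 8, 2 and 2. Among PRC2 genes 3 of 11 were measured (Jarid2, Aebp2 and Ezh2) and none was called. Among PRC1 genes 11 of 21 were measured, with Bmi1 (87, 55 and 164 counts) and Phc3 (20, 13 and 43) higher and Pcgf2 lower (50, 46 and 32).

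Several immune receptor lists had medians below that of all genes. In the largest given here, the interleukin and the Toll-like and lectin lists, 10.3% and 8.70% of measured genes were lower, against 11.3% of all genes. Of 83 interleukin and receptor genes 58 were measured, with none higher and 6 lower and a median of -0.26 (0.20 below all genes). These included Il6ra, the decoy receptor gene Il1r2 (31, 59 and 37 counts, ratio 0.378), Il7r (28, 28 and 24) and Il21r (42, 42 and 38). Of 96 Toll-like and lectin receptor genes 46 were measured, with 1 higher and 4 lower and a median of -0.22, among them the flagellin receptor gene Tlr5 (236, 278 and 185 counts). Of 20 interferon-stimulated genes 10 were measured, with 3 lower, 1 higher (Zbp1, a sensor of Z-form nucleic acid, 48, 20 and 141 counts, ratio 4.25) and a median of -0.31. Ifi44 (14, 27 and 13 counts) and Oas3 (130, 150 and 104) were among the lower. Of 35 inflammasome and Nod-like receptor genes 21 were measured, with Nlrp3 and 3 others lower and Nod2, a peptidoglycan sensor, higher (16, 11 and 69 counts, ratio 3.78).

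The median of the Tnf superfamily lay on the other side, at 0.07, which is -0.13 when scaled to the sparsest genes. Of its 41 genes 19 were measured, with 1 higher (5.26%) and 3 lower (15.8%). Among all measured genes 7.19% were higher and 11.3% lower. The MHC and butyrophilin-like list had 24 of 42 genes measured, 7 higher (29.2%) and 1 lower (4.17%), and a median of 0.49 (0.55 above all genes). Its median member was in the second densest of 10 classes of floxed density, class 9, where 6.67% were higher and 4.75% lower. Its largest gains were adjacent on chromosome 17: Btnl5-ps had 272, 49 and 610 counts (7.51, 5.61 to 10.3) and Btnl4 316, 94 and 549 (3.52, 2.83 to 4.43). The class II gene H2-Aa had 19, 9 and 53 counts (3.55, 1.74 to 8.19) and passed the count minimum through the rescue library. Near-identical MHC and butyrophilin copies may share reads. Btn2a2, on chromosome 13, was lower (32, 58 and 33).

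Structural and neuronal families are set beside the 18.4% of all measured genes that were called in either direction. Keratin genes (45 of 102 measured) had 0 higher and 6 lower with a median of -0.20, and 3 of the 6, Krt71, Krt72 and Krt74, are neighbours. Integrin and laminin genes (32 of 37) had 0 higher and 3 lower with a median of -0.22, among them the platelet integrin gene Itgb3 (129, 150 and 77 counts, ratio 0.310) and Itgb7 (159, 190 and 183). Collagen genes (42 of 44) had 2 higher and 5 lower, with Col6a4 lowest (520, 606 and 404 counts, ratio 0.402). Adam and matrix metalloprotease genes (60 of 84) had 4 higher and 7 lower. Among these Adam28, a lymphocyte metalloprotease gene, had 774, 108 and 1607 counts (8.98, 7.38 to 11.01) and Adam23 140, 188 and 985 (3.16, 2.70 to 3.71). Potassium channels (82 of 92) had 1 higher and 3 lower with a median of -0.03, which is above 0 with edgeR or DESeq2 factors, as is that of the neurotransmitter receptors (-0.03). Axon guidance genes (69 of 73) had 5 higher and 9 lower with a median of -0.11, and neurotransmitter receptors (90 of 99) had 7 higher, led by the AMPA receptor gene Gria3 (43, 48 and 220 counts), and 5 lower. The list of neuronal genes (18 of 18) had 2 higher and 0 lower and a median of 0.19, which is -0.02 when scaled to the sparsest genes.

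The lists of other cell types held 0 higher genes among those measured, where 7.19% of all measured genes were higher and 11.3% lower. Each list has only 7 to 17 measured genes, so 0 higher genes says little about its members. Of 19 T-cell and NK-cell genes 17 were measured and 4 were lower: Cd28 (64, 86 and 67 counts), Cd5 (118, 147 and 119), Tcf7 (71, 87 and 81) and Zap70 (96, 174 and 189). Their list median was -0.20. Of 20 stromal and endothelial genes 17 were measured and 3 were lower (Vcam1, Col1a1 and Pdgfrb), and of 17 erythroid and megakaryocyte genes 7 were measured with 1 lower. Of 14 mast cell, basophil and eosinophil genes 9 were measured with 1 lower (Kit). None of 10 measured B-cell genes was called. Olfactory receptor genes (43 of 1123 measured) had 1 higher and 3 lower.

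Called genes had neighbours called the same way more often than measured genes at large. For each called gene the nearest measured gene that did not overlap it, within 100 kb, was taken. Of 641 higher genes with such a neighbour, 25.7% had a neighbour that was higher and 5.46% one that was lower, against 7.34% and 11.1% for all 9032 genes with a neighbour. Of 1017 lower genes, 20.1% had a lower and 3.34% a higher neighbour. The neighbours' median log2 ratio was 0.20 beside higher genes and -0.18 beside lower genes. Runs of at least 3 neighbouring measured genes called the same way, with gaps of at most 100 kb, numbered 25 on the higher side with 93 genes and 27 on the lower side with 85 genes. They held 12.3% of the 756 higher and 7.03% of the 1209 lower genes with a position. Some higher genes had fewer than 20 deleted counts and passed the count minimum through the deeper rescue library, and no lower gene did. The neighbour and run counts were not split for this, so the 2 sides are not alike.

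The longest higher run held 8 genes over 225 kb of chromosome 11 (chr11:100347327-100572566), with 589, 367 and 3940 summed counts and a ratio of 6.48 (5.82 to 7.23). It ran from Hap1, a huntingtin-binding protein gene (258, 178 and 534 counts), through Jup, P3h4 (120, 57 and 454), the collagen chaperone gene Fkbp10 (126, 72 and 454), Nt5c3b and Klhl10 to Acly, ATP citrate lyase (9, 11 and 38), and Ttc25 (9, 17 and 51). The ends of the run differed least, at 1.81 for both Hap1 and Ttc25, and Jup and Nt5c3b most. Spans of P3h4, Fkbp10, Nt5c3b and Klhl10 lie close together, and 3 genes of the run overlap a named gene. How reads in an overlap were counted was not tested: 4930487H11Rik, which lies inside Nrp2, had 0 counts in all 3 libraries.

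A second run on chromosome 11 (chr11:87616399-87826114) held Mpo with its relative Lpo, lactoperoxidase (151, 165 and 583 counts), Bzrap1 (31, 31 and 374), Rnf43, a ubiquitin ligase of Wnt signalling (21, 12 and 323), and Hsf5 (46, 51 and 158). Its sum was 254, 265 and 1921 counts, a ratio of 4.37 (3.84 to 4.99). The peroxidase gene Epx of eosinophils, next to Lpo, had 69, 70 and 128 counts and was not called. On chromosome 1 (chr1:75450510-75506486) Chpf lay in a run with Asic4, an ion channel gene (976, 473 and 1662 counts), Tmem198 (334, 24 and 568) and Obsl1, a cytoskeletal adaptor gene (810, 438 and 1347). In this run the floxed and rescue libraries were alike at each gene and the deleted library was low.

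The other long higher runs were a serpin cluster, a run around Mllt1 and one around Cnnm2. The serpin run on chromosome 12 (chr12:103616675-103773633) held 6 genes, among them Serpina1b and Serpina1d of the antitrypsin family (11, 8 and 76, and 11, 6 and 51 counts) and Serpina6, the corticosteroid carrier (9, 14 and 99). Serpina10 (16, 17 and 74), Serpina16 (4, 11 and 49) and Serpina1f (3, 7 and 43) completed it. Its sum of 54, 63 and 392 counts gave 3.75 (2.87 to 4.98), and near-identical Serpina1 copies may share reads. All 6 genes had fewer than 20 deleted counts and passed the count minimum through the deeper rescue library, where they are high. The run therefore rests on that minimum. In the run on chromosome 17 (chr17:56775897-56982126), Mllt1 itself, the partner gene of the fusion, had 17, 20 and 72 counts (2.17, 1.31 to 3.76). It lay with Rfx2 (334, 218 and 734), Acsbg2 (106, 95 and 279), 1700061G19Rik (34, 16 and 87) and the ceramidase gene Acer1 (226, 184 and 689). On chromosome 19 (chr19:46667165-47015174) the magnesium transport gene Cnnm2 had 191, 103 and 2091 counts (12.2, 10.1 to 15.1), between As3mt (48, 53 and 353) and Nt5c2 (330, 251 and 665), with the steroid hydroxylase gene Cyp17a1 (70, 54 and 149) at the end.

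**Figure D4:**
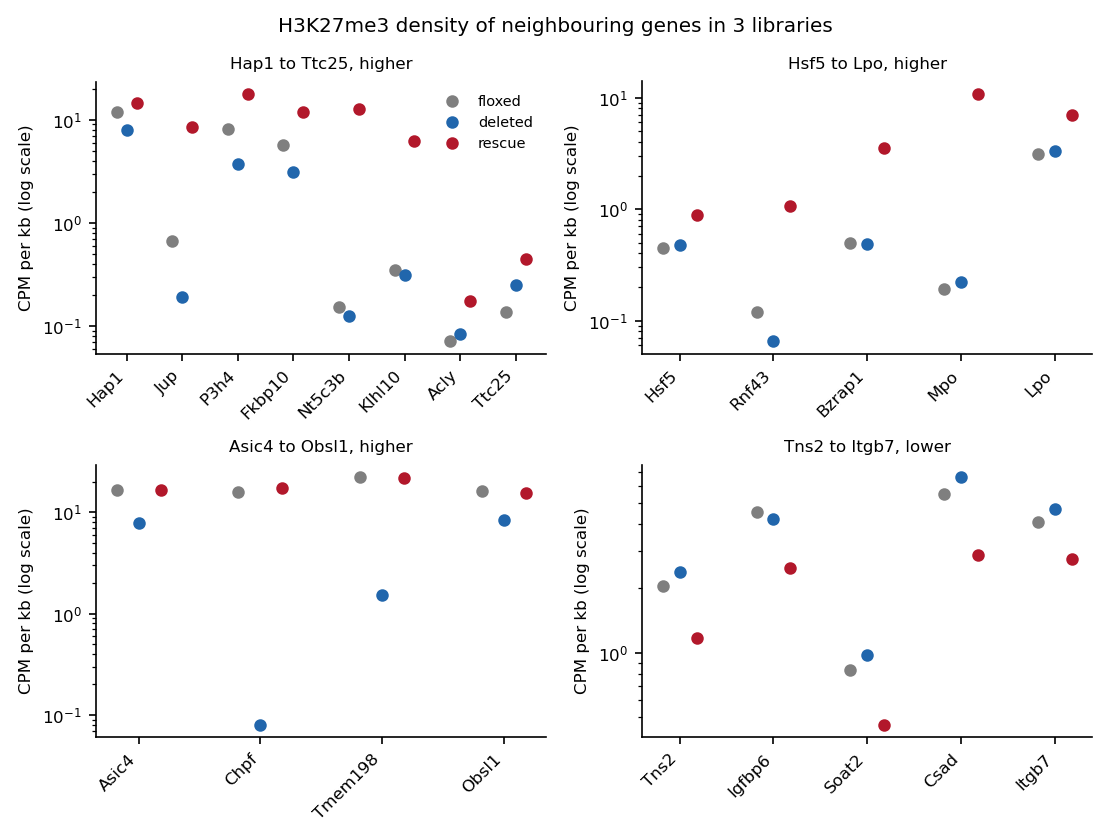
Each panel shows the H3K27me3 density (CPM per kb, log axis) of the genes of a run in chromosome order, with grey for floxed, blue for deleted and red for rescue. In the Hap1 and Mpo runs the rescue library is the highest at every gene. In the Chpf run the deleted library lies below both others, and in the Tns2 run the rescue library lies below both others.

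The longest lower run held 5 genes on chromosome 15 (chr15:102098475-102233405): Tns2 (67, 81 and 66 counts), Igfbp6 (59, 57 and 56), Soat2 (26, 32 and 25), the taurine enzyme gene Csad (162, 202 and 145) and Itgb7. Its ratio was 0.510 (0.450 to 0.577) on 473, 562 and 475 summed counts. A run on chromosome 6 (chr6:38864159-39206773) held the thromboxane synthase gene Tbxas1 (56, 64 and 65), Parp12 (296, 313 and 270), 4930599N23Rik (242, 208 and 190) and the histone demethylase gene Kdm7a (92, 134 and 41, ratio 0.185, 0.127 to 0.264). All but Parp12 overlap a named gene, and how reads in the overlaps were counted was not tested. At Kdm7a the density was 0.536, 0.753 and 0.139 CPM per kb, so the rescue library was below both others.

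Runs were ordered by number of genes and then by summed counts, and 24 of the 27 lower runs tie at 3 genes. The 3 of these with the most counts held Ocm (145, 170 and 144 counts), Lmtk2 (662, 871 and 632) and Tecpr1 (27, 39 and 29) at 0.450 (0.410 to 0.493), Adrbk2 (580, 792 and 740) with the lens crystallin genes Crybb2 (44, 104 and 82) and Crybb3 (70, 79 and 64) at 0.548 (0.500 to 0.601), and Akap7 (661, 766 and 758), Epb4.1l2 (47, 71 and 78) and Smlr1 (10, 29 and 16) at 0.594 (0.539 to 0.653). Nlrp3 and Zkscan17 lay in a short run with 4933439C10Rik (86, 567 and 102 summed counts, ratio 0.109, 0.0870 to 0.134). It is the steepest of the 27 lower runs.

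Imprinted regions held runs in both directions. Of 38 imprinted genes 28 were measured, with 6 higher and 5 lower and a median of 0.07, which is -0.14 when scaled to the sparsest genes. On chromosome 17 the receptor gene Igf2r (664, 161 and 1534 counts) and its overlapping non-coding partner Airn (775, 202 and 2029) were higher, at 5.75 (4.88 to 6.80) and 6.06 (5.24 to 7.04). On chromosome 12 Dlk1, Meg3 and Rian were lower at 0.508 (0.460 to 0.561), on 900, 862 and 726 summed counts. Igf2r and Airn overlap, how reads in the overlap were counted was not tested, and no allele was told apart.

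H3K4me3 was counted in separate libraries from the same lines, in a window of 301 bp a gene, and the sources used here do not say where that window lies. Among all 6369 genes measured for H3K4me3, 4.44% were higher and 5.89% lower in rescue against deleted. Of 2305 genes measured for both marks, 66 (2.86%) were higher and 263 (11.4%) lower in H3K4me3, with a median of -0.07. Of 226 such genes that were higher in H3K27me3, 10 were higher and 46 (20.4%) lower in H3K4me3, with a median of -0.24. Of 282 that were lower in H3K27me3, 5 were higher and 11 (3.90%) lower, with a median of 0.01. Among the genes higher by 5-fold or more, 8 of 24 (33.3%) were lower in H3K4me3 and 1 was higher. Of all 69 such genes, 39 had fewer than 20 deleted H3K27me3 counts and passed the count minimum through the rescue library. The 24 were not split in this way, so no trend with fold is read from them. The share of H3K4me3-lower genes thus ran from 3.90% through 11.5% (206 of 1797 genes not called) to 20.4%. No test of the difference was made with 1 library a side. The deleted and rescue H3K4me3 libraries held 420701 and 395133 counts.

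Single loci show both marks changing in opposite directions; those below were picked after their values were seen. Slc28a2 had 37, 50 and 1 H3K4me3 counts, so its ratio of 0.0213 (0.000529 to 0.124) rests on 1 rescue count, where its H3K27me3 was 46.4-fold higher. The peptide hormone gene Adm, next to Sbf2, had 193, 65 and 342 H3K27me3 counts and 23, 84 and 6 H3K4me3 counts (0.0761, 0.0271 to 0.173). Pmp22, a myelin gene, had 267, 91 and 1150 H3K27me3 counts against 125, 105 and 18 for H3K4me3 (0.182, 0.104 to 0.303), and Samd4 had 153, 127 and 32 for H3K4me3 (0.268, 0.176 to 0.398). At Slc28a2, Pmp22 and Samd4 the rescue library was the highest in H3K27me3 and the lowest in H3K4me3 of all 3 lines. Myo1e (789, 365 and 4521 for H3K27me3, 100, 83 and 33 for H3K4me3), Rnf43 (175, 114 and 59 for H3K4me3) and Bin1 (28, 11 and 336, then 156, 144 and 71) followed this course. Nlrp3 had the mirror image, with 40, 8 and 20 H3K4me3 counts where H3K27me3 was lower in rescue. Its H3K4me3 ratio of 2.66 (1.12 to 6.99) rests on 8 deleted counts. Nlrp3 averaged fewer than 20 H3K4me3 counts over deleted and rescue, so it is not among the genes measured for that mark.

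Other loci with large H3K27me3 gains were not called lower in H3K4me3. Mpo had 89, 49 and 32 H3K4me3 counts (0.695, 0.431 to 1.11, not called), Limd1 98, 62 and 45 and Ctdspl 231, 159 and 111, none called. At Vamp4 both marks were higher, with 114, 74 and 137 H3K4me3 counts (1.97, 1.48 to 2.65). Cdkn2a had 46, 20 and 39 (2.08, 1.18 to 3.76) and the PRC1 gene Bmi1 49, 30 and 51 (1.81, 1.13 to 2.94). The 5 genes lower in H3K27me3 and higher in H3K4me3 were Gas8, Lrrc75a, Prcp, the oxysterol receptor gene Nr1h3 and Tcf7l2, a Wnt effector (2346, 2548 and 2624 H3K27me3 counts, 62, 41 and 68 H3K4me3 counts). Both marks on 1 span can come from different cells or alleles of a line, which these counts cannot tell apart.

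**Figure D5:**
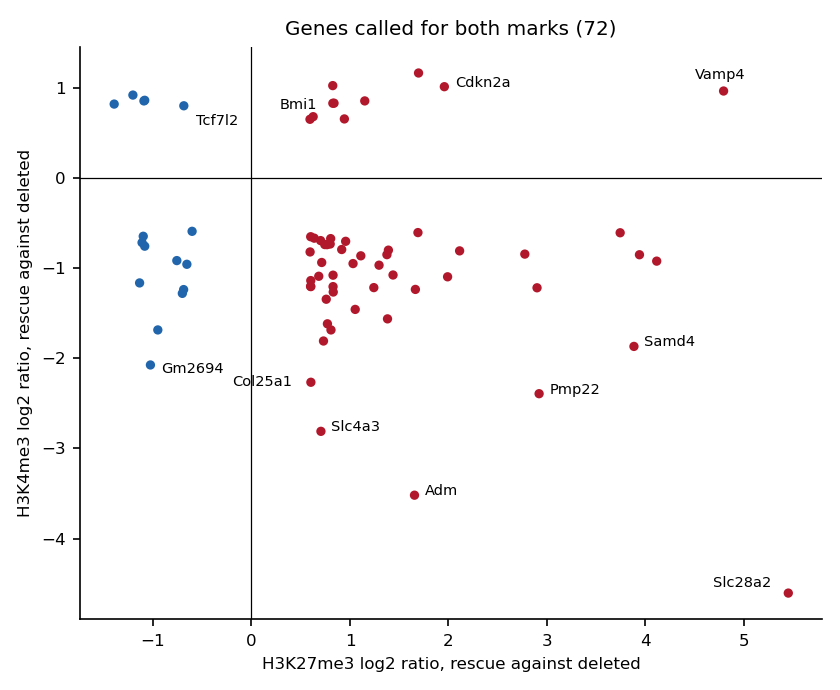
Each point is 1 of the 72 genes called for both marks, with the H3K27me3 log2 ratio of rescue to deleted on the horizontal axis and the H3K4me3 log2 ratio on the vertical axis. Red points are higher and blue points lower in H3K27me3. Of the red points 46 lie below 0 in H3K4me3, with Slc28a2 and Adm the lowest, and 10 lie above.

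Flag summits stood near few of the changed genes. The authors' lists hold 475, 220 and 429 summits, and 204 of the rescue summits were farther than 500 bp from any floxed or deleted summit. A summit of this rescue-only kind lay in the span or within 10 kb of 3 of 756 higher genes (0.397%), 4 of 1209 lower genes (0.331%) and 51 of 8738 genes not called (0.584%). Spans differ in length, with medians of 23.5, 29.1 and 34.4 kb. The higher genes included St8sia1, a sialyltransferase gene (492, 413 and 1027 H3K27me3 counts), and the kinase gene Map4k4 (544, 474 and 1537). The 4 lower genes were Gphn, the gephyrin gene (440, 485 and 340), Pir (75, 93 and 77), 9030624G23Rik and 4930578N18Rik. None of the genes with the largest gains and losses named above had such a summit. The floxed and deleted lines carry no Flag tag in the labels, so their summits are the background of the antibody.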

How the data were processed

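Libraries were taken as the labels group them, 1 for each antibody and line. The authors deposited whole-number counts per gene for H3K27me3 and H3K4me3 and, for Flag, summit positions with a −log10 score. Per the submitters' processing notes featureCounts, MACS2 and mm10 were used. The aligner and all tool versions are not given in the sources used here. Flag scores were not used beyond the lists as deposited by the authors. Rows without a symbol (568) were left out of totals.

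From the counts, CPM ratios, exact conditional binomial intervals (scipy 1.17.1) and log2 ratios (prior count of 1, scaled to library size) were computed in Python 3.11.15. The rule was tested on simulated data. Alternative scalings used edgeR 4.0.16 and DESeq2 1.42.0 factors in R 4.3.3, and the summed counts of 1819 genes of at least 5 kb with the lowest floxed density. A count minimum of 100 or none, a 2-fold rule, a prior count of 5, and leaving out overlapping or predicted genes were also tried. Gene positions are from a RefSeq table of GRCm38.p6, matched for 10703 of the measured genes.

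The genes named are Cdkn2a, Cdkn2b and Hhex, the 15 higher and 15 lower genes whose interval lay farthest from a ratio of 1 (without predicted genes), up to 4 called members with the largest log2 ratio in each list, the genes of the 6 longest runs in each direction and the genes at the count minimum. Others were chosen after their values were seen. Some items these rules name are not reported here. The comparison, the members and the lists, some taken from an earlier session on these files, were chosen with earlier results of these data known.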

Additional observations from a re-analysis of the deposited data

How the results depend on the processing

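Scaling and the count minimum moved the totals. Scaled to the sparsest genes there were 428 higher and 2250 lower genes, the median of all genes was -0.27 and that of density class 10 was 0.10. That scale rests on 4176 deleted and 8000 rescue counts. With edgeR factors the medians were -0.017 and 0.35, and with DESeq2 factors -0.012 and 0.36. With no count minimum they were -0.011 and 0.19. With a mean of at least 100 counts there were 456 higher and 409 lower genes and the medians were -0.02 and 0.40. A 2-fold rule gave 360 higher and 510 lower genes. With gaps of at most 20 kb there were 15 higher and 12 lower runs. The order of higher and lower counts turned at the minimum of 100. The log2 ratio of Cdkn2a kept its call under all alternatives run. Of the genes named by rank and the 3 fixed genes, Hhex alone changed its call, under scaling to the sparsest genes. The ranked genes were chosen for intervals far from 1, so shifts of this size could hardly change their calls. Some genes, Cdkn2b among them, were left out at the minimum of 100 or as overlapping genes. That scaling also moved 31 of 56 list medians. No paired analysis was possible because each group has 1 library, and no library could be left out. Intervals cover counting error only, and spread between cultures was not measured.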

Other observations

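The remaining gene families add single loci. Among all measured genes 7.19% were higher and 11.3% lower. Of 343 solute carrier genes 212 were measured, with 15 higher (7.08%) and 19 lower (8.96%), near those shares, and a median of -0.09. The kidney phosphate transporter gene Slc34a1 had 20, 17 and 395 counts in floxed, deleted and rescue (14.0, 8.64 to 24.3), the choline transporter gene Slc44a1 682, 556 and 3558 (3.86, 3.53 to 4.23) and the zinc transporter gene Slc30a8 of islet cells 21, 27 and 139. The rescue library was the highest at each, and Slc34a1 passed the count minimum through it. Of 63 serpin genes 49 were measured, with 9 higher (18.4%) and 8 lower (16.3%).

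Among the receptors and antagonists of Wnt, Fgf, Bmp and Tgfb signalling, 48 of 53 were measured, with 4 higher (8.33%) and 1 lower (2.08%). Bmpr1a had 58, 76 and 311 counts (2.47, 1.92 to 3.22) and the frizzled genes Fzd5 and Fzd3 had 103, 114 and 345, and 701, 779 and 2015. Of 92 cyclin and cell cycle kinase genes 29 were measured, with 2 higher and 2 lower (6.90% each). The stress kinase gene Plk3, which overlaps a named gene, had 7, 1 and 68 counts, a ratio of 41.0 (7.12 to 1644) that rests on 1 deleted count. By chromosome, the autosomes and X had median log2 ratios from -0.12 (chromosome 3) to 0.05 (X).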
